A study of Mus musculus with 16 samples.

Results

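The response of quadriceps muscle to a single bout of maximal exercise was described over both diets together. All 16 libraries of the series entered it. They comprised 8 from mice killed after exercise, 4 of CON-post and 4 of HFD-post, and 8 from mice that had not run, 4 of HFD-pre and 4 of CON-pre. The animals were male C57BL/6NTac mice of 16 weeks with no engineered allele. They had eaten a control diet (CON, 10% of energy as fat) or a high-fat diet (HFD, 60%) for 10 weeks. The post mice ran on a treadmill to exhaustion and were killed 3 h later, kept with water but without food in between. The pre mice were other animals, acclimatised to the treadmill and fasted over the same period, so each comparison was between mice and not within a mouse. Expression was deposited as FPKM, a fragment count scaled by transcript length and library size, from poly(A) RNA. The effect of exercise was the post minus pre difference of log2(FPKM + 0.5) with diet as a term of the model, in the 11256 of 23970 gene symbols with a mean of at least 0.5 FPKM. A gene was called where the adjusted p of limma was under 0.05, and "rose" and "fell" are used below of called genes only.

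Contracting muscle switches on a brief wave of transcription once a bout has ended. Immediate early factors, nuclear receptors of the NR4A family and the coactivator PGC-1α respond to calcium, cAMP and energy stress, chaperones answer protein damage, and genes of fat oxidation follow as the muscle refills its glycogen. Most of these transcripts return to their resting level within a day, so a sample taken hours after a run catches one moment of the sequence.

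The libraries were alike in scale. Their FPKM summed to 294867 to 327559 in the pre and 283575 to 329282 in the post group, and correlations between libraries ran from 0.966 to 0.984. Markers of fast muscle fibres had a summed level of 65700 to 82900 FPKM pre and 56700 to 74000 post. Those of slow fibres summed to 457 to 1080 FPKM pre and 434 to 1500 post. Other tissues were represented unequally. Transcripts typical of liver, 12 genes chosen after their values were seen (Alb, which encodes serum albumin, Apoa1, Apoa2, Apoc3, Ahsg, Fabp1, Ttr, Mup3, Mup7, Mup14, Serpina1a and Serpina1b), summed to 12.1 to 52.8 FPKM in 6 libraries and to 0.3 to 5.27 FPKM in the other 10. The higher libraries were CON-pre 1, CON-pre 2, CON-pre 3, HFD-pre 1, HFD-pre 4 and HFD-post 1, that is 5 pre and 1 post. None of the 11 tested genes of this list was called by limma, and 4 had an unadjusted p under 0.05. The liver signal moved with the exercise groups, and its part in the results was not tested. Results are given also with its level in the model, and in the 10 low libraries, 3 pre and 7 post. Each call was further set against 31 alternatives, the other settings and the fits without 1 library each (30 where a gene was not tested in each of them). The 31 leave out the fits of CON or HFD libraries only and of the 10 low libraries, and the 2 other thresholds of p. Within a diet 135 of 232 values of named genes kept their direction but not their side of the threshold.

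Between pre and post 459 genes differed by limma, 4.08% of those tested. Of these, 351 rose (3.12%) and 108 fell (0.959%). The rises were larger. Their median was 0.43 on the log2 scale against -0.35 for the falls and 0.01 for all genes tested, of which 6047 of 11256 were higher post, and 36 rises but 1 fall exceeded 1. In 86 genes (0.764%) the 8 post libraries did not overlap the 8 pre libraries, and 85 of these were called, 69 as rises and 16 as falls. The called genes had 1 direction in both diets (459 of 459), which calling on the average of the diets favours.

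How many genes rose and fell changed with the scaling of the libraries. Rises made up 76.5% of the calls on the deposited FPKM, 61.1% after median-of-ratios scaling (337 rises, 215 falls), 52.1% after quantile normalization (296 and 272) and 46.5% after upper-quartile scaling (275 and 316). These scalings moved the median of all genes from 0.014 to -0.001, -0.016 and -0.027. With the liver transcripts in the model 284 genes were called (226 rises, 58 falls), 253 of them among the 459. Without CON-pre 1 the counts were 276 in all, 224 rises and 52 falls. In the 10 libraries low in liver transcripts 63 genes were called (60 rises and 3 falls, Klhl31, Lrrc38 and Pde4b), and 59 of these were among the 459. There the median of the 351 rises was 0.40 and that of the 108 falls -0.26.

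**Figure D1:**
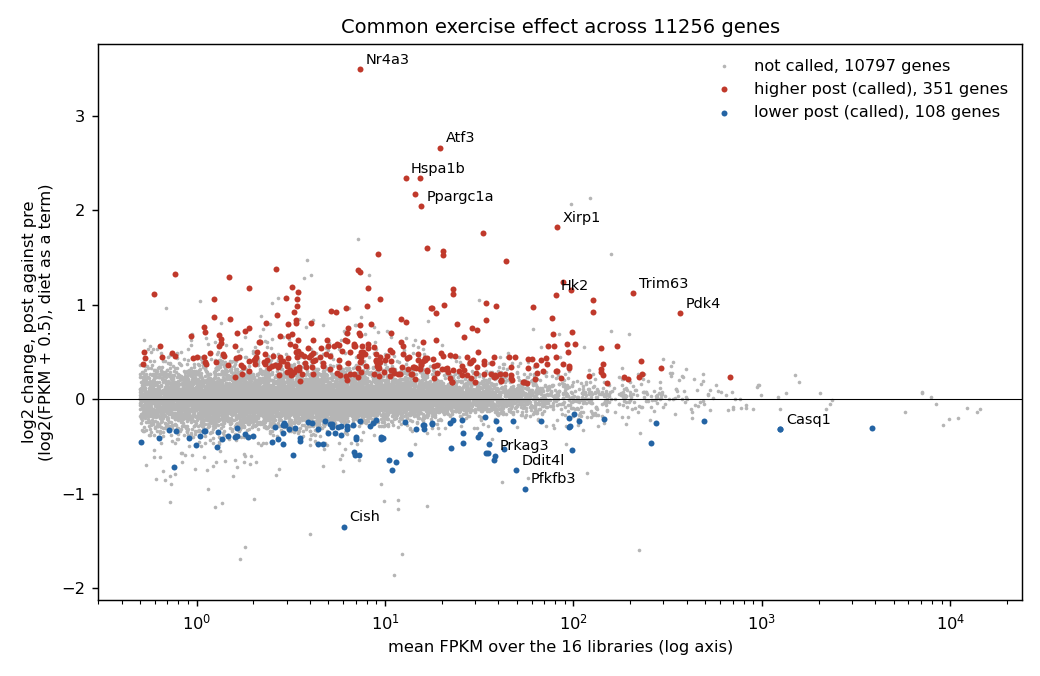
Log2 change of each of the 11256 genes tested, post against pre, over its mean FPKM in the 16 libraries (log axis); red points rose, blue points fell and grey points were not called. The 351 rises reach 3.49 at Nr4a3, while the falls stay above -1 except Cish.

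The largest rise belonged to Nr4a3, an orphan nuclear receptor that is induced by β-adrenergic and contractile stimuli. Its FPKM were 0.21, 0.677 and 1.71 (lowest, median and highest) in the 8 pre libraries and 8.10, 14.8 and 19 in the 8 post libraries. The groups were far apart, and the log2 change was 3.49 ± 0.21 (SE; limma adjusted p = 6.43e-08). Within the diets it was 3.03 in CON and 3.96 in HFD. The HFD-pre libraries held 0.21 to 0.68 FPKM and the CON-pre libraries 0.675 to 1.71.

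Ppargc1a, the gene of PGC-1α, the coactivator of mitochondrial biogenesis, rose in both diets. It ranged from 4.18 over a median of 5.59 to 7.11 FPKM pre and from 14.5 over 24.9 to 35.1 FPKM post. The change was 2.04 ± 0.13 (SE; adjusted p = 6.98e-08), with 1.98 in CON and 2.10 in HFD. Of the 16 coactivators and partners listed with it, 3 rose and 0 fell, with a median of 0.13. Nrip1, which encodes the corepressor RIP140, rose by 0.63 ± 0.10 on the log2 scale from 3.16 ± 0.613 to 5.16 ± 0.782 FPKM (SD, n = 8 each; adjusted p = 0.00169). Sirt1, a deacetylase that acts on PGC-1α, was called at an adjusted p of 0.0451 with a change of 0.35 ± 0.10, but not in 16 of its 31 alternatives (highest adjusted p = 0.111), among them the fits without CON-pre 1, 2 and 3, HFD-pre 1, 2 and 3, CON-post 1, 2 and 3, HFD-post 2 and 3. Ppargc1a was the only member of this list above a change of 1. With the liver transcripts in the model Ppargc1a and Nrip1 were the 2 called.

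Immediate early and AP-1 factors, the transcription factors switched on without new protein synthesis, held 9 rises and 0 falls among 22 genes tested, with a median of 0.43. With liver transcripts in the model 7 were called, and 5 in the 10 low libraries. Atf3, a stress-induced member of the ATF family, had 2.41, 4.47 and 9.54 FPKM (lowest, median, highest) pre and 14.7, 33.8 and 59.3 post. No post library lay within the pre range, and the change was 2.66 ± 0.26 (SE; adjusted p = 1.42e-05). Btg2, an antiproliferative gene that answers growth signals, went from 3.13 to 4.50 FPKM pre to 8.25 to 15.4 post (1.34 ± 0.12, adjusted p = 5.79e-06). The small MAF proteins, which lack a transactivation domain and pair with NRF2, rose together: Mafk by 0.98 ± 0.11 (adjusted p = 3.72e-05) and Maff by 1.29 ± 0.14 (adjusted p = 4.40e-05), each without overlap of the groups. Egr1, a zinc finger factor, was low. It had 0.369, 1.16 and 1.72 FPKM pre and 1.13, 3.84 and 7.89 post, with 7 of 8 post libraries above the highest pre library, and a change of 1.38 ± 0.24 (adjusted p = 0.00263). Jun, Myc, Csrnp1 and Fos were the other called members. In the neighbouring lists, Klf5, a Krüppel-like factor, rose by 0.72 ± 0.16 (adjusted p = 0.017; 1 of 12 tested), with 1.14 in CON and 0.31 in HFD, and Dusp4, a phosphatase that switches off ERK, by 0.56 ± 0.11 (adjusted p = 0.0054; 1 of 9).

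**Figure D2:**
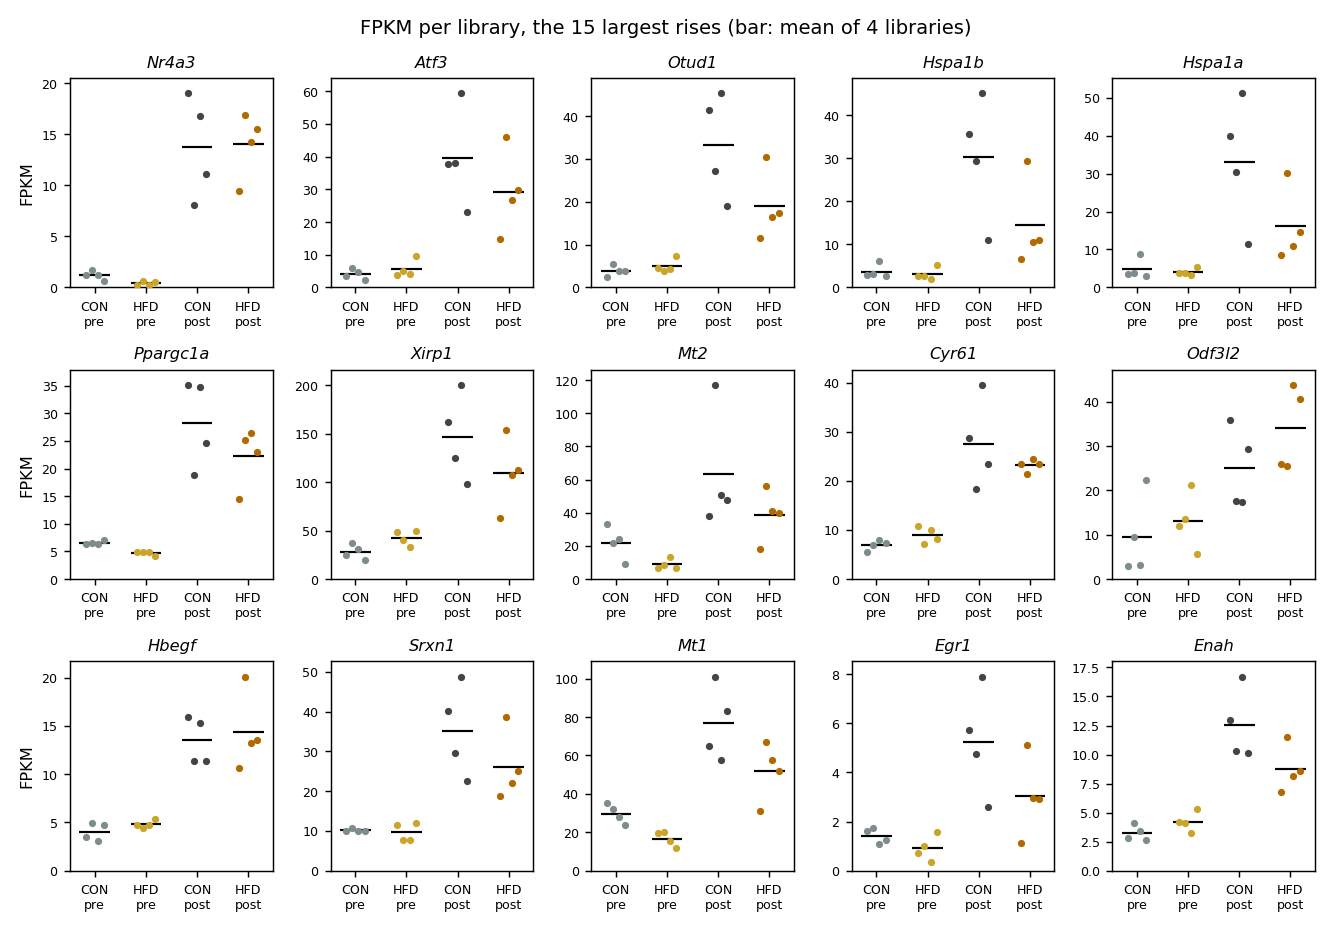
FPKM of the 15 genes with the largest called rises in each library, by diet and state (pre, then post); points are libraries, bars are means of 4, and every axis starts at 0. Nr4a3, Ppargc1a and Hbegf have post points clear of all pre points, while Odf3l2 and Egr1 overlap.

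Heat shock chaperones refold damaged proteins. Their list held 8 rises and 0 falls among 29, with a median of 0.15, and the rises were led by the inducible HSP70 genes. With liver transcripts in the model 7 were called higher post and 1 lower. Hspa1b had 1.98, 2.84 and 6.11 FPKM (lowest, median, highest) pre and 6.71, 20.2 and 45.0 post. Its change was 2.34 ± 0.32 (SE; adjusted p = 0.000313). Hspa1a moved alike, from 4.40 ± 1.89 to 24.6 ± 15.7 FPKM (SD, n = 8 each; change 2.17 ± 0.31, adjusted p = 0.000492), with 7 of 8 post libraries above the highest pre library. The copies are near-identical, so the authors' counting could split their reads in ways that leave the value of either uncertain. Dnajb4, an HSP40 co-chaperone, rose by 0.73 ± 0.10 (adjusted p = 0.000335) from 18.1 to 28.2 FPKM pre to 31.2 to 50.2 post. Hspb7, a small heat shock protein of striated muscle, rose by 0.56 ± 0.11 (adjusted p = 0.00674). Bag3, Hsf2, Hspb1 and Hspa1l were also called. The post libraries varied widely here, and CON-post 4, HFD-post 1, HFD-post 3 and HFD-post 4 held less of both HSP70 transcripts than the other post libraries.

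The promoters of the 10 largest rises found in the RefSeq table (of 15) were searched on both strands over 300 bases, 250 before to 50 after the start. Motifs were the cAMP response element (TGACGTCA), AP-1 (TGAGTCA or TGACTCA), the heat shock element (GAANNTTC), the NR4A element NBRE (AAAGGTCA), the E-box (CACGTG), the Egr site (GCGGGGGCG), the CArG box and the MEF2 site. None held the cAMP response element or 2 heat shock elements, the content that had been set for printing a promoter. The 3 shown were chosen after the matches were seen, to show the near-identical HSP70 pair and the promoter with 2 AP-1 elements. Of the others, Mt2 held 1 AP-1 element, Atf3 1 MEF2 site, Otud1 1 E-box and Enah 1 Egr site. Nr4a3, Ppargc1a and Mt1 held none of the 8 motifs in these windows. The table had 10 promoters for these 10 genes, so other starts of a gene, and bases further upstream, were not searched. Printed are the 250 bases before the start in GRCm38.p6, with heat shock elements (Hspa1b and Hspa1a) and AP-1 elements (Srxn1) in capitals. Hspa1b lies at chr17:34959239-34959488 on the minus strand, Hspa1a at chr17:34972157-34972406 on the minus strand and Srxn1 at chr2:152105274-152105523 on the plus strand.
Hspa1b: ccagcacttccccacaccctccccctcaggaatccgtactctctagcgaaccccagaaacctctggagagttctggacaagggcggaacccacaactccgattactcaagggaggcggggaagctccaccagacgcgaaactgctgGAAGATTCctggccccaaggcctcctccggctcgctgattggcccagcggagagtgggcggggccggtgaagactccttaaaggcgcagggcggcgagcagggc
Hspa1a: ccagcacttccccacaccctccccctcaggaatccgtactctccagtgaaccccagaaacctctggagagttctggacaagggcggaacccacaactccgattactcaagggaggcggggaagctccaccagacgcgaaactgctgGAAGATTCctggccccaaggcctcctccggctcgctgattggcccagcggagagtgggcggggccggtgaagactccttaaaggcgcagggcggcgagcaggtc
Srxn1: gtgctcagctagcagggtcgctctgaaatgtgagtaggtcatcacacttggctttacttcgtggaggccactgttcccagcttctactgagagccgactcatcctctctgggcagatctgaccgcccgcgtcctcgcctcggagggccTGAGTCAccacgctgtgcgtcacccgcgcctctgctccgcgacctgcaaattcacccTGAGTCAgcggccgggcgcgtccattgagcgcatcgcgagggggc
The Hspa1b and Hspa1a windows share 247 of 250 bases (98.8%), and the heat shock element begins 104 bases before the start in each. The AP-1 elements of Srxn1 begin 102 and 45 bases before its start. Among all 32851 promoters in the table, 7.86% hold a heat shock element, 5.2% AP-1 and 1.79% the cAMP response element. Among the genes tested here that have a promoter in the table, a heat shock element stood in 23 of 267 rises (8.61%), 8 of 87 falls (9.20%) and 6.98% of 8486 genes. AP-1 stood in 18 rises (6.74%), 5 falls (5.75%) and 4.50% of all, and a MEF2 site in 13 rises (4.87%), 7 falls (8.05%) and 2.52% of all. The cAMP response element stood in 8 rises (3.00%), 5 falls (5.75%) and 3.63% of all, and NBRE in 2 rises (0.749%), 0 falls and 1.11% of all. The letters are a description of these windows and not of binding.

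Metallothioneins and antioxidant genes, which buffer metals and oxidants, held 5 rises and 0 falls among 25, with a median of 0.15. Mt2 had 6.65, 11.2 and 33.1 FPKM pre and 18.4, 44.4 and 117 post, and rose by 1.76 ± 0.28 (adjusted p = 0.00136). Mt1 rose by 1.46 ± 0.16 (adjusted p = 3.77e-05), from 23.2 ± 8.12 to 64.3 ± 20.8 FPKM (SD, n = 8 each). The 4 HFD-pre libraries held less Mt1 (11.7 to 20.2 FPKM) than the 4 CON-pre libraries (23.6 to 35). Srxn1, sulfiredoxin, which restores oxidised peroxiredoxins, had the lowest p of the list. It had 7.67, 10.1 and 12.1 FPKM pre and 18.7, 27.2 and 48.8 post, with no overlap and a change of 1.52 ± 0.16 (adjusted p = 3.63e-05). Nfe2l2, which encodes NRF2, the factor that controls antioxidant genes, changed by 0.31 ± 0.07 (adjusted p = 0.0151), a call lost with upper-quartile and quantile scaling and with liver transcripts in the model (highest adjusted p = 0.0667). Prdx5 was the other rise.

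Otud1, a deubiquitinase, was the largest rise outside the transcription factors and chaperones. Its level was 2.37, 4.10 and 7.30 FPKM pre and 11.6, 23.1 and 45.3 post, with a change of 2.34 ± 0.25 (adjusted p = 3.63e-05). It was the only call among 40 ubiquitin and proteasome genes, and the median of that list was 0.06. Secreted growth signals were represented by Cyr61, a matrix-associated YAP target, and Hbegf, a ligand of the EGF receptor that is no member of the list of secreted factors. Cyr61 rose by 1.60 ± 0.14 (adjusted p = 4.47e-06) from 5.45 to 10.8 FPKM pre to 18.4 to 39.5 post. Hbegf rose by 1.54 ± 0.12 (adjusted p = 1.03e-06) from 3.09 to 5.35 FPKM pre to 10.6 to 20.1 post. Angptl4, an inhibitor of lipoprotein lipase, was called beside Cyr61 among 19 secreted factors (median 0.08, and 0.26 in the 10 libraries low in liver transcripts), at 0.70 ± 0.16 (adjusted p = 0.0194), but not without the diet term (0.0764) nor with liver transcripts in the model (0.0605). Odf3l2, a gene named after a sperm tail protein, rose by 1.57 ± 0.34 (adjusted p = 0.014), with wide pre values of 3.04 to 22.4 FPKM, and was not called with liver transcripts in the model (1.16, adjusted p = 0.0575) nor in the 10 libraries low in them (0.67, adjusted p = 0.456).

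Genes of the Z-disc and of mechanosensing, which anchor and monitor the sarcomere, moved in both directions, with 8 rises and 2 falls among 28 and a median of 0.15. Xirp1, an actin-binding repair protein, had 19.5, 35.3 and 49.3 FPKM pre and 62.8, 118 and 200 post. The ranges did not meet, and the change was 1.82 ± 0.22 (adjusted p = 0.000101), 2.35 in CON and 1.28 in HFD. Flnc, which encodes filamin C, a partner of Xirp1, rose by 0.92 ± 0.14 (adjusted p = 0.000765) from 86.7 ± 17.3 to 166 ± 38.2 FPKM (SD, n = 8 each). Nrap, a scaffold of myofibril assembly, rose by 0.33 ± 0.06 (adjusted p = 0.00268). Pdlim5, Des, Ankrd2, Csrp3 and Actn2 rose as well. Enah, an actin polymerase of the Ena/VASP family and no member of the list, rose by 1.37 ± 0.16 (adjusted p = 6.43e-05). Against these, Myoz3, a Z-disc protein of fast fibres, fell by 0.23 on the log2 scale (SE 0.05, adjusted p = 0.0112), and Ky was the other fall.

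Atrophy ligases and genes of the FoxO pathway showed 8 rises and 1 fall among 20, with a median of 0.31. Trim63, which encodes the ubiquitin ligase MuRF1, had 88.0, 137 and 175 FPKM pre and 201, 281 and 371 post. It rose by 1.12 ± 0.16 (adjusted p = 0.000487) without overlap. Eif4ebp1, a repressor of translation initiation, rose by 0.75 ± 0.12 (adjusted p = 0.00103), and Cblb, a ligase that acts on IRS1, by 0.56 ± 0.10 (adjusted p = 0.00234). Fbxo31, Foxo3, Fbxo32 (atrogin-1), Sesn1 and Foxo1 were the other rises. Ddit4l, an inhibitor of mTOR complex 1 also called REDD2, moved the other way. It had 50.8, 61.2 and 84.3 FPKM pre and 28.4, 36.0 and 52.9 post, so that 7 of 8 post libraries lay below the lowest pre library, and it fell by 0.75 on the log2 scale (SE 0.11, adjusted p = 0.000645). In the 10 libraries low in liver transcripts the median of this list was 0.14, with no call by limma, and Cblb changed by 0.35.

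Autophagy genes held 5 rises and 0 falls among 22, with a median of 0.08 (0.14, with 0 calls by limma, in the 10 libraries low in liver transcripts). Gabarapl1 and Map1lc3a, which coat the autophagosome, rose by 0.50 ± 0.09 (adjusted p = 0.00503) and 0.33 ± 0.07 (adjusted p = 0.0116). Bnip3, a mitophagy receptor, was called at 0.42 ± 0.10 (adjusted p = 0.0265) and Pink1, a kinase that marks damaged mitochondria, at 0.23 ± 0.06 (adjusted p = 0.0371). These calls were lost in 8 and 18 of 31 alternatives, with adjusted p up to 0.0593 and 0.127. Among them were, for Bnip3, the fits without CON-pre 1 and 2, HFD-pre 1 and 2, CON-post 1, HFD-post 3, and for Pink1 those without CON-pre 1, 2 and 3, HFD-pre 1 and 2, CON-post 1, 3 and 4, HFD-post 1, 2, 3 and 4. Map1lc3b was the remaining rise. The integrated stress response had 2 calls among 21 and a median of 0.18. Cdkn1a, which encodes the cell cycle inhibitor p21, rose by 0.56 ± 0.11 (adjusted p = 0.00961; 0.37 in the 10 libraries low in liver transcripts). Gadd45a, a stress-induced gene of growth arrest (0.34 ± 0.09, adjusted p = 0.0483), was lost in 21 of 31 alternatives (highest adjusted p = 0.131), with those without CON-pre 1, 2, 3 and 4, HFD-pre 1 and 2, CON-post 1, 2 and 4, HFD-post 1, 2 and 4. Its change was 0.21 in the 10 libraries low in liver transcripts.

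In glucose metabolism, 4 genes rose and 2 fell among 30, and the median was 0.04. Hk2, hexokinase 2, which traps glucose in the fibre, had the lowest p of them. Its 8 pre libraries held 45.8, 49.8 and 57.8 FPKM (lowest, median, highest) and its 8 post libraries 87.5, 112 and 127, a change of 1.10 ± 0.08 (adjusted p = 3.36e-07), with 1.05 in CON and 1.15 in HFD. Pdk4, the kinase that shuts pyruvate dehydrogenase, rose by 0.91 ± 0.18 (adjusted p = 0.00869) from 146 to 386 FPKM pre to 292 to 555 post. Its change was 1.38 in CON and 0.44 in HFD, and limma's interaction term was not called for it (unadjusted p = 0.0062). In the 10 libraries low in liver transcripts it changed by 0.42 (adjusted p = 0.441). Pfkfb4, a bifunctional enzyme that sets the level of fructose 2,6-bisphosphate, rose by 0.32 ± 0.07 (adjusted p = 0.0173), while Pfkfb3, its relative, had 47.0, 53.4 and 136 FPKM pre and 21.0, 26.7 and 82.1 post. It fell by 0.95 on the log2 scale (SE 0.22, adjusted p = 0.018), a call lost without the diet term (0.0951) and with liver transcripts in the model (0.0645). Pgam2, the muscle phosphoglycerate mutase, fell by 0.32 (SE 0.06, adjusted p = 0.00441) from 1230 to 1550 FPKM pre to 955 to 1210 post, with no overlap. Pdp2, which opposes Pdk4, was the other rise. No glycogen gene was called by limma among 17 (3 at an unadjusted p under 0.05): Pygm, glycogen phosphorylase, was at 2340 ± 168 FPKM pre and 2260 ± 165 post (SD, n = 8 each; change -0.05 ± 0.05, adjusted p = 0.65), and Ugp2, which makes UDP-glucose, changed by 0.19 ± 0.06 (adjusted p = 0.0579; called in 4 of 31 alternatives, of which 2 were without CON-post 1 and HFD-post 1).

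Among genes of fat handling the called members were rises. Fatty acid uptake and droplet lipolysis held 8 rises among 27 and a median of 0.27, and fatty acid oxidation 8 rises among 28 and a median of 0.23, with 27 of the 28 higher post. The largest change in the latter was below 1. Pnpla2, which encodes adipose triglyceride lipase, had 49.7, 63.0 and 66.8 FPKM pre and 71.0, 81.3 and 99.1 post. Its groups did not overlap, with a change of 0.43 ± 0.06 (adjusted p = 0.000642). Lpin1, a phosphatidate phosphatase that also assists PGC-1α, rose by 0.37 ± 0.06 (adjusted p = 0.00321). The droplet coat genes Plin4 and Plin5 rose by 0.69 ± 0.13 (adjusted p = 0.00461) and 0.85 ± 0.17 (adjusted p = 0.00869), Plin5 not without the diet term (0.181). Cd36 and Slc27a1, which take up fatty acids, Lpl and Angptl4 completed the list of rises. Acot2, a mitochondrial acyl-CoA thioesterase, rose by 0.96 ± 0.16 (adjusted p = 0.00183), 1.45 in CON and 0.46 in HFD, and its reads may be split with a near-identical neighbour. Mlycd and Acacb, which remove and make the malonyl-CoA that blocks CPT1, both rose, by 0.38 ± 0.07 (adjusted p = 0.0067; 0.0901 without the diet term) and 0.20 ± 0.04 (adjusted p = 0.0116; 0.0567 after quantile normalization). Acadl, Ucp3, Slc25a20 and Cpt1a were called too. In the 10 libraries low in liver transcripts the medians of the lists were 0.21 and 0.16, with no call by limma, and Pnpla2, Plin4 and Plin5 changed by 0.28, 0.34 and 0.56.

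**Figure D3:**
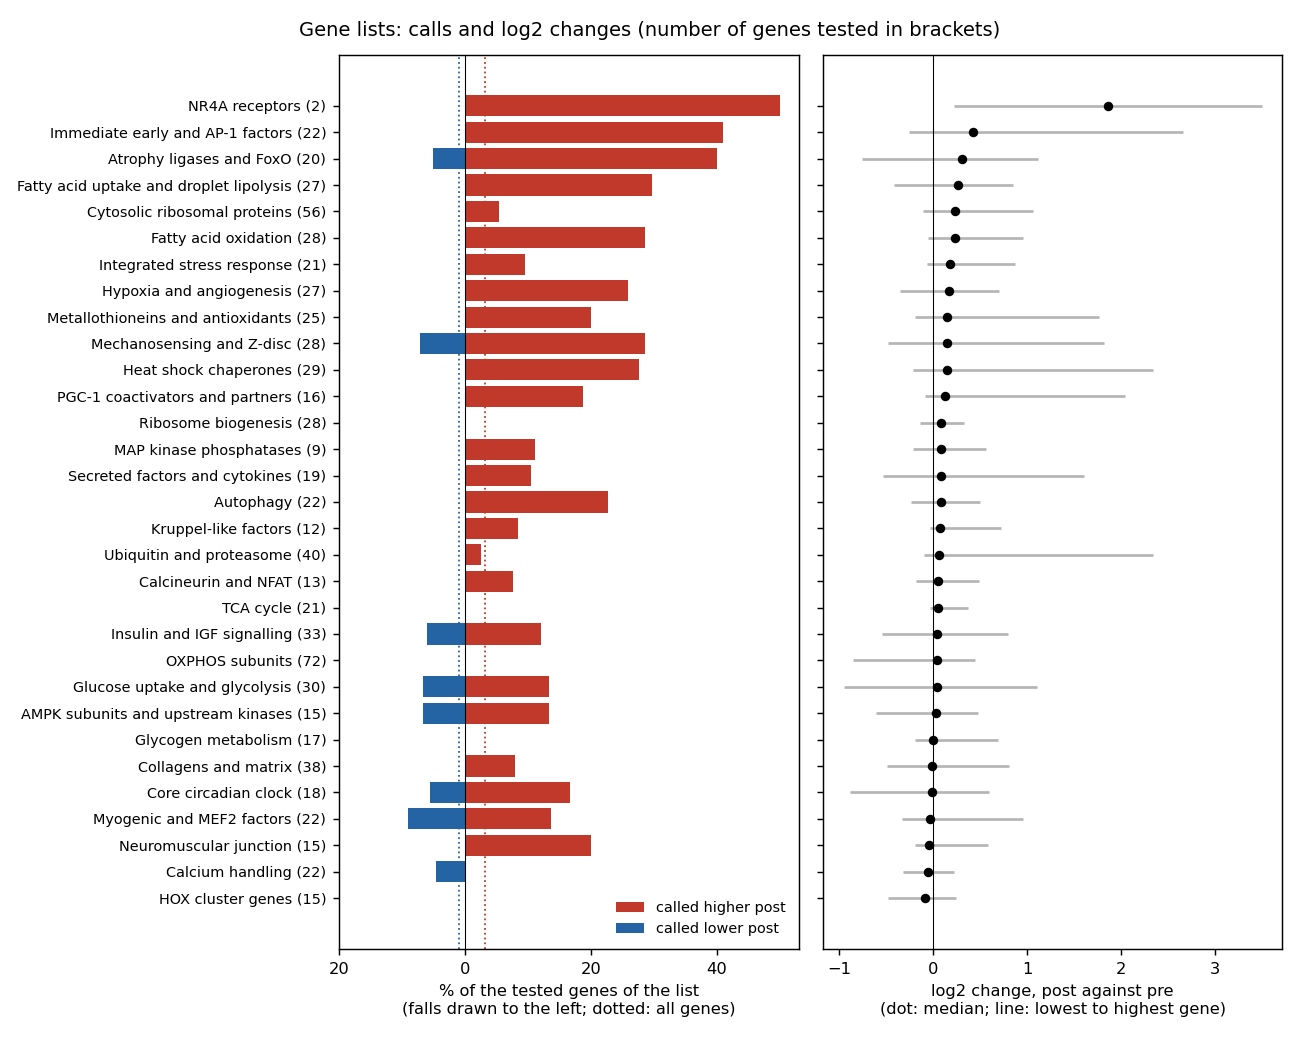
For the 31 gene lists, the percentage of tested genes that rose (red) or fell (blue, drawn to the left), with the shares over all genes dotted, and beside it the median (dot) and range (line) of log2 changes. Immediate early factors (9 of 22), atrophy genes (8 of 20) and the fat lists stand above the dotted 3.12%, and OXPHOS subunits (0 of 72) have no bar. The lists were chosen with earlier results of these data known, which can favour a share above the dotted lines.

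Several lists had no call. An unadjusted p under 0.05 was held by 18.9% of all genes tested. None of 72 OXPHOS subunits was called by limma (8 or 11.1% unadjusted; median 0.04; Atp5b, a subunit of ATP synthase, 0.13 ± 0.06, adjusted p = 0.283; Cox6a2, a muscle subunit of cytochrome oxidase, -0.09 ± 0.10, adjusted p = 0.679), nor was any of 21 TCA cycle genes (3 or 14.3% unadjusted; median 0.05). Mdh2, malate dehydrogenase, changed by 0.02 ± 0.05 (adjusted p = 0.867), with a sign that turned under upper-quartile and quantile scaling, in HFD libraries only, and without CON-pre 2 or CON-post 3. Ribosome biogenesis had no call by limma among 28 (8 or 28.6% unadjusted; median 0.09, and 0.16 in the 10 libraries low in liver transcripts). Pno1, a ribosome assembly factor, changed by 0.08 ± 0.06 (adjusted p = 0.509), and Ncl, nucleolin, by -0.03 ± 0.07 (adjusted p = 0.849), a sign that turned in HFD libraries only and in the 10 libraries low in liver transcripts. Cytosolic ribosomal proteins were higher post in 52 of 56, with a median of 0.23 and 27 (48.2%) at an unadjusted p under 0.05. Of them Rps28 (1.06 ± 0.26, adjusted p = 0.0305), Rpl14 (0.46 ± 0.12, adjusted p = 0.0326) and Rpl8 (0.23 ± 0.06, adjusted p = 0.048) were called. Each of these calls was lost in 12 or more of 31 alternatives (highest adjusted p 0.0669, 0.0673 and 0.101). These included, for Rps28, the fits without CON-pre 1 and 2, HFD-pre 1, 2 and 3, CON-post 1, HFD-post 1, 2 and 3. For Rpl14 they included those without CON-pre 1, 2 and 3, HFD-pre 1, 2 and 3, CON-post 1 and 2, HFD-post 1, 2 and 3, and for Rpl8 those without CON-pre 1 and 2, HFD-pre 1, 2 and 3, CON-post 2, 3 and 4, HFD-post 1, 2, 3 and 4. HOX genes, which keep the positional identity of a muscle, had no call by limma among 15 (3 or 20% unadjusted; median -0.08, but 0.05 in the 10 libraries low in liver transcripts; Hoxc10 -0.03 ± 0.06, adjusted p = 0.809; Hoxa10 -0.08 ± 0.10, adjusted p = 0.694, both above 0 in those 10 libraries).

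Signalling by insulin and AMPK included members in both directions. Of 33 insulin and IGF genes, 4 rose and 2 fell (median 0.04). Trib1, a pseudokinase, rose by 0.80 ± 0.12 (adjusted p = 0.000754), and Irs2, an insulin receptor substrate, by 0.62 ± 0.12 (adjusted p = 0.0054). Igfbp5, an IGF-binding protein, fell by 0.54 on the log2 scale (SE 0.10, adjusted p = 0.0054) from 91.6 to 155 FPKM pre to 61.1 to 95.1 post. Irs1 also fell, and Tbc1d1, a brake on GLUT4 traffic, rose. Among 15 AMPK genes 2 rose and 1 fell, with a median of 0.03. That median was 0.18 in the 10 libraries low in liver transcripts, where Fnip1 was called and Prkag3 and Cab39 were not. The fall was Prkag3, which encodes the γ3 subunit of glycolytic muscle. It had 39.7, 47.1 and 50 FPKM pre and 25, 29.4 and 36.5 post, and the change was -0.60 ± 0.07 (adjusted p = 0.000129), with 8 of 8 post libraries below the lowest pre library. Cab39, a partner of the upstream kinase LKB1, rose by 0.28 ± 0.05 (adjusted p = 0.00216), and Fnip1, a folliculin partner, by 0.48 ± 0.09 (adjusted p = 0.0067).

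Prkag3 was 1 of the 10 largest falls. Cish, a feedback inhibitor of STAT5 signalling, headed them. Its FPKM were 2.94, 8.36 and 16.6 pre and 1.52, 2.26 and 6.40 post, and it fell by 1.35 on the log2 scale (SE 0.27, adjusted p = 0.00809), with 5 of 8 post libraries below the lowest pre library. Lrrc38, a regulatory subunit of BK potassium channels, had the lowest p. Its pre libraries held 7.73, 8.84 and 10.1 FPKM and its post libraries 5.23, 5.62 and 6.18, for a change of -0.59 ± 0.06 (adjusted p = 1.85e-05), and it was the only 1 of the 10 called in the 10 libraries low in liver transcripts. Nrep, a neuronal regeneration protein, fell by 0.65 (SE 0.09, adjusted p = 0.000584) and 6430571L13Rik, by 0.75 (SE 0.11, adjusted p = 0.000584), each without overlap. Gprc5c, an orphan receptor, fell by 0.67 (SE 0.14, adjusted p = 0.0114; 0.0533 with liver transcripts in the model). Tnfaip2, a TNF-induced gene, at -0.64 ± 0.15 (adjusted p = 0.0256), was not called with liver transcripts in the model (0.0958), without a filter on low values (0.0537), or without CON-pre 1 (0.0584), CON-pre 2 (0.0509), CON-pre 3 (0.053) or HFD-pre 1 (0.0575). In the 10 libraries low in liver transcripts the changes of Gprc5c, Tnfaip2 and Mc5r were -0.30, -0.17 and -0.34. Mc5r, a melanocortin receptor near the filter at 1.10 ± 0.592 FPKM pre and 0.426 ± 0.199 post (SD, n = 8 each), changed by -0.72 ± 0.17 (adjusted p = 0.024), and was not called with liver transcripts in the model (0.0958), without the diet term (0.0662) or without CON-pre 1 (0.0545).

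**Figure D4:**
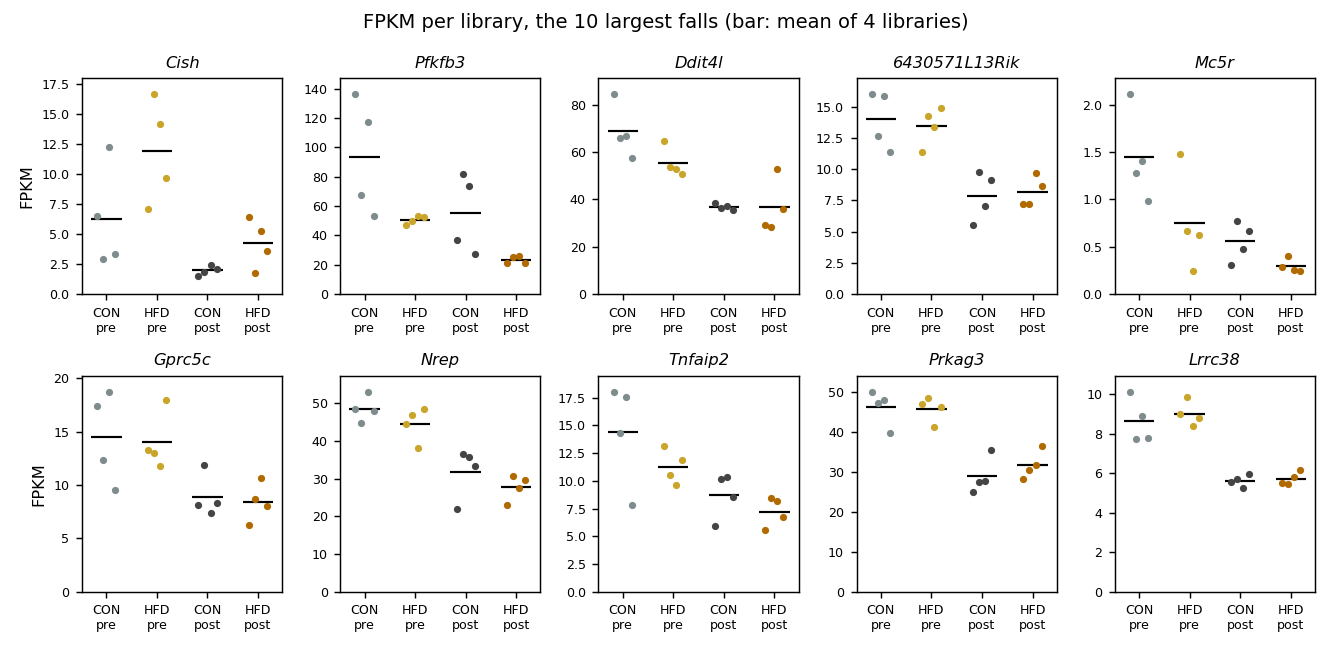
FPKM of the 10 genes with the largest called falls in each library, by group; points are libraries, bars are means of 4 and every axis starts at 0. Lrrc38, Prkag3, Nrep and 6430571L13Rik have post points below all pre points, and Pfkfb3 and Tnfaip2 spread widely in CON-pre.

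Factors of muscle identity moved in both directions, with 3 rises and 2 falls among 22 and a median of -0.03. Vgll2, a muscle cofactor of TEAD proteins, had 7.80, 12.1 and 14.2 FPKM pre and 15.6, 25.1 and 29.9 post. Its change was 0.96 ± 0.12 (adjusted p = 0.000203), with 0.94 in CON and 0.98 in HFD. Myf6, the myogenic factor of mature fibres, rose by 0.42 ± 0.09 (adjusted p = 0.0116; 0.0536 with liver transcripts in the model) and Hdac5, a repressor of MEF2, by 0.28 ± 0.06 (adjusted p = 0.0136). Six4, a homeobox factor, fell by 0.32 (SE 0.07, adjusted p = 0.0156; 0.0632 with liver transcripts in the model, and a change of -0.16 in the 10 low libraries), and Mef2c was the other fall. At the neuromuscular junction 3 of 15 rose (median -0.04), among them Musk, the agrin receptor kinase, by 0.54 ± 0.08 (adjusted p = 0.00113; 0.0679 without the diet term), and its activator Dok7 by 0.58 ± 0.12 (adjusted p = 0.0125; 0.35 in the 10 libraries low in liver transcripts). The other rise was Gadd45a, a call lost in 21 of 31 alternatives. With liver transcripts in the model 2 genes of this list were called, Musk and Dok7. Of 22 calcium-handling genes, Casq1 was called. This calcium buffer of the sarcoplasmic reticulum fell by 0.32 (SE 0.06, adjusted p = 0.0034) from 1270 to 1490 FPKM pre to 933 to 1240 post, with no overlap. Nfatc1, the calcineurin target, was called at 0.33 ± 0.07 (adjusted p = 0.0175; 0.0605 with liver transcripts in the model), 1 of 13.

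Clock genes had 3 rises and 1 fall among 18, with a median of -0.01. Cry2, a repressor of the clock, had 7.97, 8.45 and 11.3 FPKM pre and 10.9, 12.8 and 16.2 post, a change of 0.50 ± 0.08 (adjusted p = 0.00197), with 7 of 8 post libraries above the highest pre library. Nfil3, a repressor of the D-box, rose by 0.60 ± 0.12 (adjusted p = 0.0079). Rora at 0.29 ± 0.08 (adjusted p = 0.0466) and Bhlhe40 at -0.46 ± 0.12 (adjusted p = 0.0364) were lost in 20 and 12 of 31 alternatives (highest adjusted p 0.13 and 0.0779). For Rora these included the fits without CON-pre 1 and 3, HFD-pre 1, 2 and 3, CON-post 1, 2 and 4, HFD-post 1, 2, 3 and 4, and for Bhlhe40 those without CON-pre 1 and 3, HFD-pre 1, 2 and 3, CON-post 1 and 4, HFD-post 1, 2 and 3. The runs followed a fast begun in the morning, per the Methods, and the clock hour at which either group was killed is not given in the sources used here.

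Genes of hypoxia and vessels held 7 rises and 0 falls among 27 (median 0.17). Edn1, the vasoconstrictor endothelin 1, rose by 0.43 ± 0.09 (adjusted p = 0.0135; 0.0576 with liver transcripts in the model), and Epas1, which encodes HIF-2α, at 0.22 ± 0.06 (adjusted p = 0.0293) was lost in 11 of 31 alternatives (highest adjusted p = 0.159), with those without CON-pre 1, 2 and 3, HFD-pre 3, CON-post 3 and 4. Ednrb, Egln3, Cited2, Angptl4 and Bnip3 were the other calls, and with liver transcripts in the model 2 remained. Matrix genes had 3 calls among 38 (median -0.01, but 0.21 in the 10 libraries low in liver transcripts), among them Timp3, an inhibitor of metalloproteinases, at 0.45 ± 0.08 (adjusted p = 0.00366) and Lox, lysyl oxidase, at 0.57 ± 0.16 (adjusted p = 0.0486; lost in 22 of 31 alternatives, highest 0.0976, with those without CON-pre 1, 2, 3 and 4, HFD-pre 1, 2 and 3, CON-post 1, 2 and 3, HFD-post 1, 2, 3 and 4).

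Of 103 cell type markers tested 5 were called (4.85%), close to the 4.08% of all genes. Among fast-fibre markers 1 of 11 was, the fall of Myl1, with medians of the summed level at 73800 FPKM pre and 67500 post, and among skeletal muscle markers Des rose. Slow-fibre markers were higher post in 11 of 11 (median 0.17, 0 called), with summed levels of 457, 809 and 1080 FPKM (lowest, median, highest) pre and 434, 918 and 1500 post, and their median was -0.42 in the 10 libraries low in liver transcripts. Adipocyte markers were higher in 11 of 12 (median 0.27; Lpl called), at 855, 1000 and 1090 FPKM pre and 850, 1080 and 1400 post, beside the rises of fat-handling genes, which share Lpl. Neutrophil markers (0 of 8 called, median -0.63, but 0.35 in the 10 libraries) ran from 3.15 to 104 FPKM pre and from 3.77 to 175 post. Endothelial markers gave 1 call of 10 (Pecam1) and Schwann cell markers 1 of 6 (Prx), while blood, macrophage, fibroblast, tendon, bone, skin, satellite cell and cardiac markers gave none. Several of these lists were mostly below the filter: 1 of 6 satellite cell, 2 of 8 bone and 3 of 7 skin markers were tested. The satellite cell gene changed by 0.27, with limma's unadjusted p under 0.05. Of 6 cardiac markers 2 were tested and 4 were below the filter, of which 2 were at 0 in every library. In whole muscle, fewer cells of a type and less RNA per cell cannot be told apart, and the part of these shifts in the results was not tested.

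The diets were compared by the size of the response. The median of the 351 rises was 0.47 in CON and 0.39 in HFD, and of the 108 falls -0.36 and -0.34. For 227 rises the change was larger in CON and for 124 in HFD. No gene had a called interaction of diet and exercise by limma (smallest adjusted p = 0.926), and 356 genes had an unadjusted p under 0.05, 3.16% of all tested and 8.06% of the called genes (37 of 459). Among the named genes the smallest unadjusted p belonged to Acot2 (0.000306), and Enah had 1.78 in CON and 0.96 in HFD (unadjusted p = 0.00571). Fitted alone, CON libraries gave 72 calls and HFD libraries 41, with 20 genes in both, among them Adamts9, Atf3, Btg2, Cyr61, Fam134b, Hbegf, Hk2, Klhl31, Lmod2, Lrrc38, Mafk, Mt1, Nr4a3, Otud1, Ppargc1a, Prkag3, Sik1, Slc38a2 and Srxn1. Pooling the diets added 368 genes that neither fit called. Where the groups did not overlap, the exact two-sided permutation p within diets is fixed at 0.000408, the smallest that 4900 arrangements allow. For the named genes with overlap it was larger in some, as for Odf3l2 (exact permutation p = 0.00286) and Pdk4 (exact permutation p = 0.00204).

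**Figure D5:**
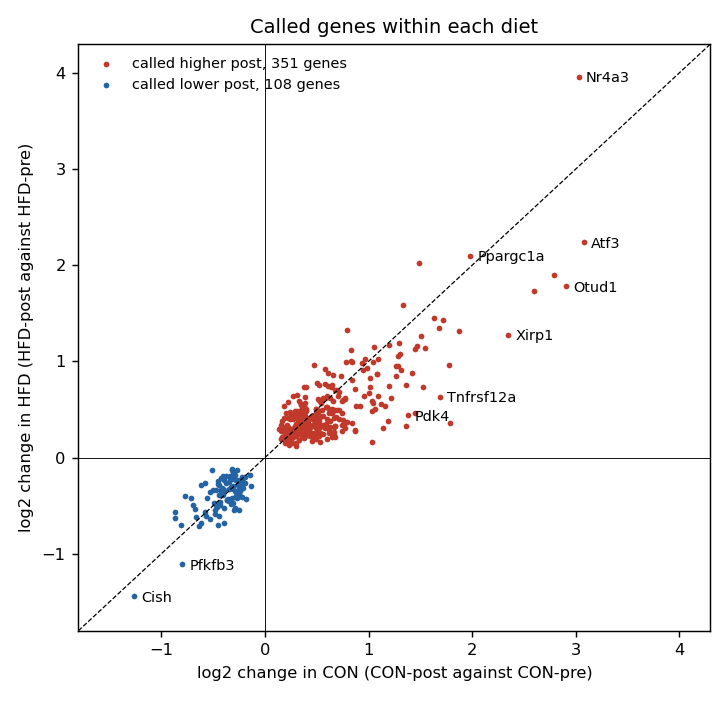
Log2 change in HFD over log2 change in CON for the 459 called genes (red rises, blue falls; the dashed line marks equal change). The called genes were chosen on the average of both changes, and their points lie in the quadrants of equal sign, with Nr4a3 above the line and Atf3, Otud1, Xirp1 and Pdk4 below it.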

How the data were processed

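RNA sequencing of quadriceps from 16 mice (4 per group, 8 per state) was analysed from the FPKM table that the authors deposited. Per the Methods, stranded poly(A) libraries were read on a HiSeq instrument, aligned with TopHat to mm9 and quantified with Cufflinks, so the deposited FPKM hold no counts. The Methods give 1 approximate read number for all samples, and the depth of each library is not given. The steps of low FPKM values put the libraries at 0.702 to 1.13 (pre) and 0.796 to 1.08 (post) times the depth of CON-pre 1. The number of mice limits the precision. The SD given was taken over the 8 libraries of a state, both diets together, and so includes any difference between the diets. The SE is limma's for the change, with diet as a term and a variance that borrows from other genes.

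Of 24487 entries, 27 with names turned into dates were left out (0.0771% of FPKM). Symbols in several entries (260) were summed. No column was left unused (0). Values of exactly 0 may be failed estimates: they occurred in 16 genes that averaged 5 FPKM or more.

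Differences were fitted with limma 3.58.1 (R 4.3.3) on log2(FPKM + 0.5), which understates changes of low genes, with diet as a term, a mean-variance trend and Benjamini-Hochberg adjustment at 0.05. Single genes were also tested with an exact two-sided permutation test, labels permuted within diet. The code was tested on simulated data. Named genes were the 15 largest rises and 10 largest falls with 1 sign in both diets, up to 4 called members per list by lowest p, and, in lists without calls, up to 2 by highest level. Other named genes were chosen after their values were seen. Members, 31 gene lists and 15 marker lists were chosen with earlier results of these data known, and the lists share genes. Promoters came from RefSeq GRCm38.p6; the Methods name mm9, so no positions of the deposited entries are printed. Replicate numbers were not used as pairs in the main fit. Alternatives were 17 planned settings and 16 fits without 1 library, plus 3 chosen after seeing the data (without symbols in several entries, and 2 on liver transcripts). Tables were made with pandas 2.3.3, numpy 2.4.6 and scipy 1.17.1 in Python 3.11.15, figures with matplotlib 3.10.9, and robust fits with statmod 1.5.0. Some genes are not reported here.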

Additional observations from a re-analysis of the deposited data

Results flagged for a closer look

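In 16 of 224 groups of 8 libraries (112 genes, pre and post), the highest or lowest library stood apart from the rest in log2(FPKM + 0.5) by more than Dixon's 95% limit. Chance marks about 1 group in 20. In CON-pre libraries, Mafk was low in CON-pre 2 (4.02 FPKM, the others 4.98 to 5.73), as were Vgll2 (7.80, against 11 to 14.2) and Mdh2 (330, against 374 to 417). CON-pre 4 was high for Eif4ebp1 (34.9 FPKM) and Nfe2l2 (18.1) and low for Six4 (2.65). Gabarapl1 was high in CON-pre 3 (29.8), and CON-pre 1 was low for Timp3 (30.4) and Lmod2 (33.9). HFD-pre 4 was low for Pygm (1980) and Lpin1 (69.2) and high for Klhl40 (53.4). After exercise, HFD-post 1 was low for Pygm (1860) and Abra (108) and high for Epas1 (38.8), and Pank1 was low in HFD-post 4 (2.70). Mdh2 (0.07 in CON, -0.03 in HFD) and Ncl (-0.10 and 0.03), neither called, differed in sign between the diets, and no named gene had a called interaction.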

How the results depend on the processing

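The total of 459 calls (351 rises, 108 falls) was 72 (67, 5) in CON libraries only, 41 (33, 8) in HFD libraries only, 284 (226, 58) with liver transcripts as a covariate, 63 (60, 3) in the 10 libraries low in them, 833 (582, 251) at an adjusted p under 0.1 and 2130 (1352, 778) at an unadjusted p under 0.05. Falls numbered 316 after upper-quartile, 215 after median-of-ratios and 272 after quantile scaling. Without 1 library each, the total ran from 276 to 604, rises from 224 to 455 and falls from 52 to 149. The lowest counts came without CON-pre 1, the highest without CON-pre 4, and falls were 65 without HFD-pre 1 and 71 without CON-post 1. The causes were not tested. Pseudocounts of 0.1 and 1 (460, 467), no filter on low values (343), a filter at 1 FPKM (482), no trend (445), robust eBayes (458), array weights (561), no diet term (421), the full model (435) and no symbols in several entries (460) stayed within 1.5 times. In the 28 alternatives that kept both diets, the tested genes and libraries of either liver level, 200 genes (164 rises, 36 falls) stayed called. No named call turned in direction. Of 1428 list medians 10 moved by more than the spread, 6 of them in the 10 libraries (atrophy 0.14, autophagy 0.14, AMPK 0.18, secreted factors 0.26, HOX genes 0.05, ribosome biogenesis 0.16), 2 in HFD only (immediate early factors 0.23, PGC-1 partners 0.06), 1 in CON only (MAP kinase phosphatases 0.17) and 1 after quantile normalization (skeletal muscle markers 0.03). Some medians outside this count moved further in the 10 libraries. Slow-fibre markers went from 0.17 to -0.42 and neutrophil markers from -0.63 to 0.35. Macrophage markers went from 0.06 to 0.36 and matrix genes from -0.01 to 0.21. The 12-gene liver list was chosen after the data were seen and covaries with the states, so liver level and exercise cannot be fully told apart. In the 10 libraries 17 of the named calls moved by over 1.5 times, as given with those genes. Low genes cannot be weighed by counts.

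With the replicate number as a block the fit gave 387 calls (300 rises, 87 falls). The labels do not say whether the numbers stand for anything shared. Over 24 same-numbered pairs of libraries the correlation of deviations from the group means ran from -0.22 to 0.21 (median -0.02), with 5 over 0.1. Of 16 libraries, 7 correlated best with their own number. These values are a hint from the data and not from the design, and cannot exclude a shared batch.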

Other observations

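Other called genes outside the lists were chosen after their values were seen. Sik1, a kinase induced by cAMP that phosphorylates class IIa histone deacetylases, had 1.35, 1.77 and 1.99 FPKM (lowest, median, highest) pre and 2.86, 4.91 and 5.41 post, a change of 1.19 ± 0.09 (SE; limma adjusted p = 1.03e-06). Fam134b, a receptor for autophagy of the endoplasmic reticulum, had 45.0, 49.3 and 59.9 FPKM pre and 87.0, 127 and 158 post (1.24 ± 0.12, adjusted p = 1.85e-05). Slc38a2, an amino acid transporter, rose by 0.84 ± 0.09 (adjusted p = 4.77e-05). Lmod2, a leiomodin that lengthens thin filaments, rose by 1.15 ± 0.15 (adjusted p = 0.000286), and Abra, which activates SRF through actin, by 1.05 ± 0.12 (adjusted p = 7.47e-05). Among kelch proteins Klhl40 rose by 0.97 ± 0.16 (adjusted p = 0.00135) and Klhl31 fell by 0.53 (SE 0.07, adjusted p = 0.00012).

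Pde4b, a phosphodiesterase that degrades cAMP, fell by 0.58 on the log2 scale (SE 0.10, adjusted p = 0.00222) with no overlap, from 12.9 to 20.9 FPKM pre to 9.18 to 12.5 post. Its relative Pde4a, at -0.40 ± 0.09 (adjusted p = 0.0224), was not called with liver transcripts in the model (0.0576) nor without CON-pre 1 (0.0518). Other rises were Dgat2, which makes triglyceride (0.91 ± 0.15, adjusted p = 0.00197), Pank1, which starts coenzyme A synthesis (0.84 ± 0.12, adjusted p = 0.000442), the TWEAK receptor Tnfrsf12a (1.16 ± 0.21, adjusted p = 0.00363), the kinase Map3k8 (1.06 ± 0.20, adjusted p = 0.00576), the chemokine Cxcl10 (1.32 ± 0.19, adjusted p = 0.00056, all libraries at 2.43 FPKM or less) and the glucocorticoid target Fkbp5 (1.00 ± 0.22, adjusted p = 0.0129, 0.0599 with liver transcripts in the model, and a change of 0.47 in the 10 libraries low in them). Mitochondrial carriers Slc25a33, Slc25a34 and Slc25a22 were called at 0.56, 0.58 and 0.51 (0.27, 0.35 and 0.24 in those 10 libraries), and each call was lost in some alternative (adjusted p up to 0.0916, 0.159 and 0.0968), with the fits without CON-pre 1, 2 and 3, HFD-pre 1 and 3, CON-post 1 and 3, HFD-post 1 and 2 for Slc25a33 and without CON-pre 1, 2 and 3, HFD-pre 1 and 2, CON-post 1, 3 and 4, HFD-post 1 and 2 for Slc25a22. Trim39 was the only gene with groups that did not overlap and no call (-0.25 ± 0.07, adjusted p = 0.0741; called after upper-quartile scaling, 0.0342).

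Another 26 genes differed by over 1 on the log2 scale without a call. Of these, 11 were small RNA or host gene entries, each at 0 in 8 to 15 libraries, and 7 were liver transcripts. Alb had 0.138, 5.98 and 13.5 FPKM (lowest, median, highest) pre and 0.0648, 0.37 and 13.2 post, with a log2 change of -1.43 (adjusted p = 0.353). The remaining 8 were Amd1, Ankrd1, Gm13889, Gm2083, Hbb-bs, LOC100504703, S100a8 and S100a9. Ankrd1, a mechanosensitive gene that was in the Z-disc list, went from 19.8 to 43.2 FPKM on average (adjusted p = 0.0852).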
